A study of Mus musculus with 9 samples.

Results

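The 9 genes described here encode the growth factor IGF1, the receptors IGF1R and INSR, and the IGF-binding proteins 2 to 7. They were taken by symbol (Igf1, Igf1r, Insr and Igfbp2 to Igfbp7) from the deposited table of gene counts, and they are 9 of its 36410 listed genes. Poly(A)-selected RNA was sequenced from 3 mouse immortalized striatal lines derived from embryos, with 3 libraries per line and 9 in all. The control cells (STHdhQ7/Q7) have 7 glutamine codons in Htt exon 1 on both alleles, the HD-het cells (STHdhQ7/Q111) have 7 and 111, and the HD-homo cells (STHdhQ111/Q111) have 111 on both. Exon 1 is labelled as knock-in in all 3 lines, wild-type in control and mutant in HD cells, whereas the paper describes the control line as from WT embryos. The strain is given as C57/BL6 for all 3. Each genotype is 1 line, so genotype and line cannot be told apart. Replicates are libraries of the same line, so the p-values measure only the spread between those libraries, which may be technical. The comparisons ask how the mRNA levels of the 9 genes differ between the 3 lines.

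Library totals ran from 29507665 to 41197931 counts. Levels are given as CPM, counts per 1000000 library counts after TMM scaling, and 3 counts, the floor used here, came to 0.0710 to 0.101 CPM. Intervals and floors cover counting error only. The quasi-likelihood test of edgeR was run on 13508 genes, and a gene was called different when its p, adjusted over them by Benjamini-Hochberg and given as the edgeR adjusted p, was under 0.05. All 9 genes passed the filter on low counts.

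IGF1 is a secreted peptide that binds IGF1R, a receptor tyrosine kinase, and more weakly the closely related insulin receptor INSR, and both receptors signal through IRS adaptors to PI3K and AKT. In tissue fluid most IGF is held by IGF-binding proteins, which limit access to the receptor, carry IGF to the matrix or release it when proteases cut them. In the brain IGF1 acts on the growth and survival of neural precursors and neurons.

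In HD-homo against control cells 9 of 9 genes were called, where 58.6% of all tested genes were. Of these, 5 were higher (29.6% of all tested genes) and 4 were lower (28.9%), and 8 changed by at least 2-fold (19.1%). In HD-het against control cells 4 of 9 were called, where 65.1% of all tested genes were. All 4 (Igfbp2, Igfbp3, Igfbp4 and Igfbp7) were higher (33.8% of all tested genes), and 3 changed by at least 2-fold (18.4%). The count of lower genes there was 0 by edgeR (31.4% of all tested genes), 0 at an unadjusted p under 0.05 and 0 by DESeq2. It was 1 with only these lines in the fit (Insr), without HD-het replicate 3 (Igfbp6, log2 fold change -0.49) and without HD-homo replicate 1 (Insr, -0.19). In HD-homo against HD-het cells 9 of 9 were called, where 71.6% of all tested genes were. Of these, 3 were higher (36.0%) and 6 were lower (35.6%), and 6 changed by at least 2-fold (24.3%). In these comparisons, in that order, the median log2 fold change of the 9 genes was 1.51, 0.46 and -0.59. The second of these is the value of Igfbp5, and without HD-het replicate 3 it was 0.26. Over all tested genes the medians were 0.0077, 0.025 and 0.0017. The 3 comparisons share libraries, and each is therefore given by its own values.

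**Figure D1:**
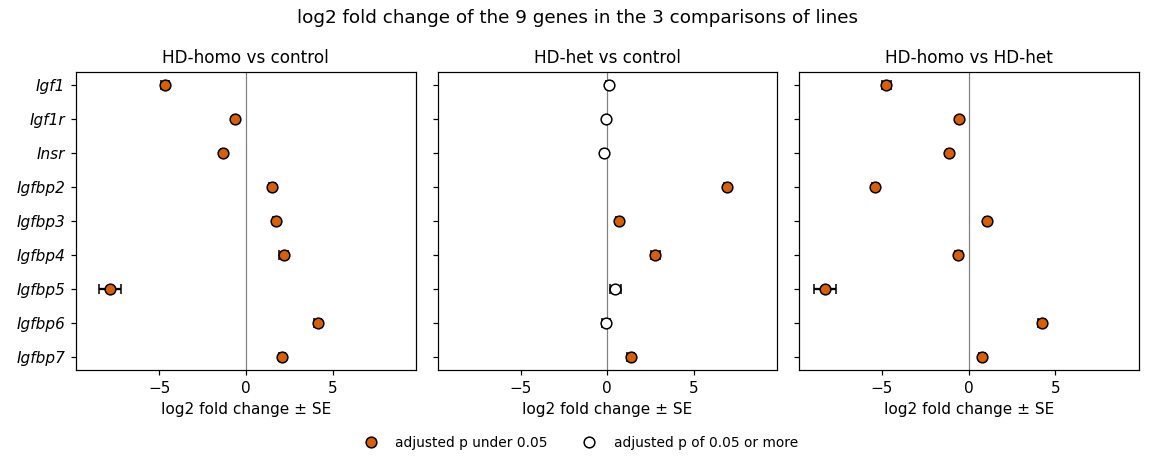
Log2 fold change of each of the 9 genes with its SE (horizontal axis) in HD-homo against control, HD-het against control and HD-homo against HD-het cells, 3 libraries per line, with filled points for an adjusted p under 0.05. The widest changes against control cells are those of Igfbp5 in HD-homo cells (-7.85) and Igfbp2 in HD-het cells (6.91).

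Igf1 (chr10:87858265-87937042, plus strand, GRCm38) encodes the ligand of the axis. Its level was 27.3, 30.8 and 23.9 CPM in control replicates 1 to 3, 29.3, 36.2 and 21.3 CPM in HD-het replicates and 1.44, 1.11 and 0.656 CPM in HD-homo replicates, the last from 47, 47 and 22 counts. All 3 HD-homo libraries lay far below the other 6, while control and HD-het libraries overlapped. The mean was 25.5-fold lower in HD-homo than in the control line, with a log2 fold change of -4.67 (SE 0.26, edgeR adjusted p 4.28e-08). Igf1 ranked 175th from the lowest fold change among the 13508 genes, and 3.21% of genes changed by more in size. Against HD-het cells it was 27.1-fold lower, with a log2 fold change of -4.75 (SE 0.26, edgeR adjusted p 2.67e-08). HD-het and control cells were not called different for Igf1, with a log2 fold change of 0.08 (SE 0.19, edgeR adjusted p 0.713). That value was -0.0066 without control replicate 3 and -0.11 without HD-het replicate 2. In bulk RNA, fewer cells that express a gene and less RNA per cell cannot be told apart. The antisense transcript Igf1os had 0 counts in all 9 libraries.

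Igf1r (chr7:67952827-68233668, plus strand) encodes the main receptor for IGF1. Its level was 160, 149 and 159 CPM in control, 150, 143 and 149 CPM in HD-het and 93.6, 103 and 99.4 CPM in HD-homo libraries. The HD-homo libraries were below all others and did not overlap them, and the other lines overlapped each other. The mean was 1.58-fold lower in HD-homo than in the control line (log2 fold change -0.66, SE 0.057, edgeR adjusted p 1.97e-06) and 1.49-fold lower than in the HD-het line (-0.58, SE 0.057, edgeR adjusted p 3.79e-06). HD-het and control cells were not called different, with a log2 fold change of -0.08 (SE 0.057, edgeR adjusted p 0.221).

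Insr (chr8:3122061-3279617, minus strand) encodes the insulin receptor, which can also pair with IGF1R in a hybrid receptor. Its level was 45.4, 45.5 and 47.1 CPM in control, 42.4, 41.9 and 37.1 CPM in HD-het and 14.8, 20.7 and 18.8 CPM in HD-homo libraries. None of the 3 lines overlapped another for Insr, and the HD-homo libraries were lowest. The mean was 2.54-fold lower in HD-homo than in the control line (log2 fold change -1.34, SE 0.11, edgeR adjusted p 1.05e-06) and 2.23-fold lower than in the HD-het line (-1.15, SE 0.11, edgeR adjusted p 2.29e-06). Between HD-het and control cells the log2 fold change was -0.18 (SE 0.10), and its edgeR adjusted p of 0.141 missed the threshold. Without HD-homo replicate 1 that comparison passed it, at -0.19 (edgeR adjusted p 0.0414), and with only the compared pair of lines in the fit it passed at -0.19 (edgeR adjusted p 0.0243).

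Igfbp2 (chr1:72824503-72852474, plus strand) encodes a binding protein abundant in the developing brain and in cerebrospinal fluid. Its level was 5.66, 6.87 and 4.87 CPM in control, 779, 677 and 647 CPM in HD-het and 13.1, 17.2 and 19.4 CPM in HD-homo libraries. The HD-het libraries stood far above the rest, and none of the 3 lines overlapped. The mean was 121-fold higher in HD-het than in the control line, with a log2 fold change of 6.91 (SE 0.17, edgeR adjusted p 2.10e-10), and it ranked 56th from the highest of 13508 genes. The HD-homo line was 2.85-fold higher than in the control line, with a log2 fold change of 1.51 (SE 0.16, edgeR adjusted p 1.02e-05). HD-homo cells were 42.3-fold below HD-het cells (log2 fold change -5.40, SE 0.16, edgeR adjusted p 1.79e-10).

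Igfbp5 (chr1:72857932-72874884, minus strand) encodes a binding protein that also attaches to extracellular matrix. Its level was 25.4, 25.4 and 21.9 CPM in control, 22.2, 20.6 and 57.3 CPM in HD-het and 0.184, 0.0237 and 0.119 CPM in HD-homo libraries, where it had 6, 1 and 4 counts. HD-homo libraries were near the floor, and control and HD-het libraries overlapped, with HD-het replicate 3 above all others. The mean was 222-fold lower in HD-homo than in the control line (log2 fold change -7.85, SE 0.63, edgeR adjusted p 1.08e-06), which ranked 41st from the lowest of 13508 genes. The 11 counts summed over the HD-homo libraries have an exact 95% Poisson interval of 5.49 to 19.7, which for the pooled level gives 134-fold to 480-fold. Without HD-homo replicate 1 the log2 fold change was -8.44, and with each library left out in turn it ranged from -8.44 to -7.29. Against HD-het cells HD-homo cells were 306-fold lower, with a log2 fold change of -8.31 (SE 0.62, edgeR adjusted p 3.78e-07). That value was -8.90 without HD-homo replicate 1 and -7.67 without HD-het replicate 3. HD-het and control cells were not called different, with a log2 fold change of 0.46 (SE 0.32, edgeR adjusted p 0.224). It turned to -0.18 without HD-het replicate 3.

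Igfbp6 (chr15:102144362-102149511, plus strand) encodes a binding protein that prefers IGF2 over IGF1. Its level was 3.45, 3.27 and 3.58 CPM in control, 2.28, 2.62 and 4.85 CPM in HD-het and 68.2, 60.0 and 52.6 CPM in HD-homo libraries. The HD-homo libraries stood far above the other 6, and control and HD-het libraries overlapped. The HD-homo mean was 17.5-fold above that of the control line (log2 fold change 4.13, SE 0.21, edgeR adjusted p 2.51e-08) and 18.5-fold higher than in the HD-het line (4.21, SE 0.21, edgeR adjusted p 1.61e-08). It ranked 329th from the highest of 13508 genes against control cells. HD-het and control cells were not called different, with a log2 fold change of -0.08 (SE 0.24, edgeR adjusted p 0.783). Each HD-het library moved that value. It was 0.12 without HD-het replicate 1, 0.05 without HD-het replicate 2 and -0.49 without HD-het replicate 3, and the last passed the threshold (edgeR adjusted p 0.0208).

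Igfbp2, Igfbp5 and Igfbp6 showed the widest differences among the binding proteins, and their promoters are printed for that reason. Igfbp2 and Igfbp5 are neighbours on chromosome 1, on opposite strands with their 3′ ends facing each other, 5457 bases apart and with 0 annotated genes between them. RefSeq promoter entries (build GRCm38.p6) matched 8 of the 9 genes. Each sequence covers 200 bases, from 250 to 51 before the transcript start that RefSeq gives, and reads 5′ to 3′ on the strand of the gene. These starts differ from the gene starts given with the positions, which are from GENCODE. Capitals mark matches on either strand to 4 motifs. The GC box was searched as GGGCGG. The CCAAT box was searched by the letters of its name. The E-box was searched as CANNTG. The TATA box was searched as TATAAA. The windows are chr1:72824230-72824429 on the plus strand for Igfbp2, chr1:72874916-72875115 on the minus strand for Igfbp5 and chr15:102143936-102144135 on the plus strand for Igfbp6.
Igfbp2: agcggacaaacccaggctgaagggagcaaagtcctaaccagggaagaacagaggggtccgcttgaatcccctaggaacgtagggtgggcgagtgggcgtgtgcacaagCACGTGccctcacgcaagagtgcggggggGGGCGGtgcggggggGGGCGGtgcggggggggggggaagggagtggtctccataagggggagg
Igfbp5: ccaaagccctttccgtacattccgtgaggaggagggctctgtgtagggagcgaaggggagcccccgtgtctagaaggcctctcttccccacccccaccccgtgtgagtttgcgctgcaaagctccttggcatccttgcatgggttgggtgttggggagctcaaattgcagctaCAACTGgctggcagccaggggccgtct
Igfbp6: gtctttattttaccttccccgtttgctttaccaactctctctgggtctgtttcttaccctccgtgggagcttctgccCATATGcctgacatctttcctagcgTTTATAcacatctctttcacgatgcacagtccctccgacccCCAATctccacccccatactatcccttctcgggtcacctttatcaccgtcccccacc
The Igfbp2 window held 2 GC boxes and 1 E-box and was 67.5% GC. RefSeq gives a second Igfbp2 entry, whose window (chr1:72825137-72825336, plus strand) held 0 matches and was 57.5% GC, and it is not printed because it overlaps an annotated exon of the gene. The Igfbp5 window held 1 E-box and was 61% GC. The Igfbp6 window held 1 CCAAT box, 1 E-box and 1 TATA box and was 51.5% GC, which is also the median of all windows. Of 32851 windows of the same length, 24.6% held a GC box, 28.4% a CCAAT box, 59.0% an E-box and 9.14% a TATA box. A CCAAT box followed by TG also reads as an E-box. These matches describe the letters only.

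Igfbp3 (chr11:7206086-7213923, minus strand) encodes the main carrier of IGF in serum. Its level was 25.2, 25.4 and 29.8 CPM in control, 43.5, 44.4 and 39.2 CPM in HD-het and 96.6, 68.0 and 101 CPM in HD-homo libraries. None of the 3 lines overlapped, and the HD-het libraries lay between the others. The HD-homo mean was 3.30-fold above that of the control line (log2 fold change 1.72, SE 0.14, edgeR adjusted p 9.01e-07) and 1.58-fold higher in HD-het than in the control line (0.66, SE 0.14, edgeR adjusted p 0.00123). HD-homo cells were 2.09-fold above HD-het cells (log2 fold change 1.06, SE 0.13, edgeR adjusted p 2.37e-05).

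Igfbp7 (chr5:77349240-77408041, minus strand) encodes a related secreted protein that binds IGF weakly. Its level was 32.7, 30.4 and 26.4 CPM in control, 83.8, 74.9 and 67.7 CPM in HD-het and 133, 90.3 and 161 CPM in HD-homo libraries. The lines stood in the same order as for Igfbp3, again without overlap. The HD-homo mean was 4.29-fold above that of the control line (log2 fold change 2.10, SE 0.18, edgeR adjusted p 1.77e-06) and 2.53-fold higher in HD-het than in the control line (1.34, SE 0.18, edgeR adjusted p 5.44e-05). HD-homo cells were 1.70-fold above HD-het cells (log2 fold change 0.76, SE 0.17, edgeR adjusted p 0.00192). Igfbp7 exons overlap those of Polr2b over 85 bases on the opposite strand, and how strand was used in counting is not stated, so reads of those bases cannot be told apart. Polr2b averaged 182, 131 and 186 CPM across the control, HD-het and HD-homo lines.

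Igfbp4 (chr11:99041244-99054392, plus strand) encodes a binding protein that inhibits IGF action until the protease PAPP-A cuts it. Its level was 1.28, 1.72 and 1.35 CPM in control, 8.60, 7.44 and 13.9 CPM in HD-het and 7.45, 5.21 and 7.25 CPM in HD-homo libraries. Both HD lines were above all control libraries and overlapped each other. The HD-homo mean was 4.57-fold above that of the control line (log2 fold change 2.18, SE 0.27, edgeR adjusted p 3.47e-05) and 6.88-fold higher in HD-het than in the control line (2.77, SE 0.26, edgeR adjusted p 4.25e-06). HD-homo cells were 1.5-fold below HD-het cells, with a log2 fold change of -0.59 (SE 0.22, edgeR adjusted p 0.0322). That call was lost without HD-het replicate 3 (-0.28, edgeR adjusted p 0.173), without HD-homo replicate 2 (-0.44, edgeR adjusted p 0.109) and with only these lines in the fit (-0.60, edgeR adjusted p 0.0511).

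**Figure D2:**
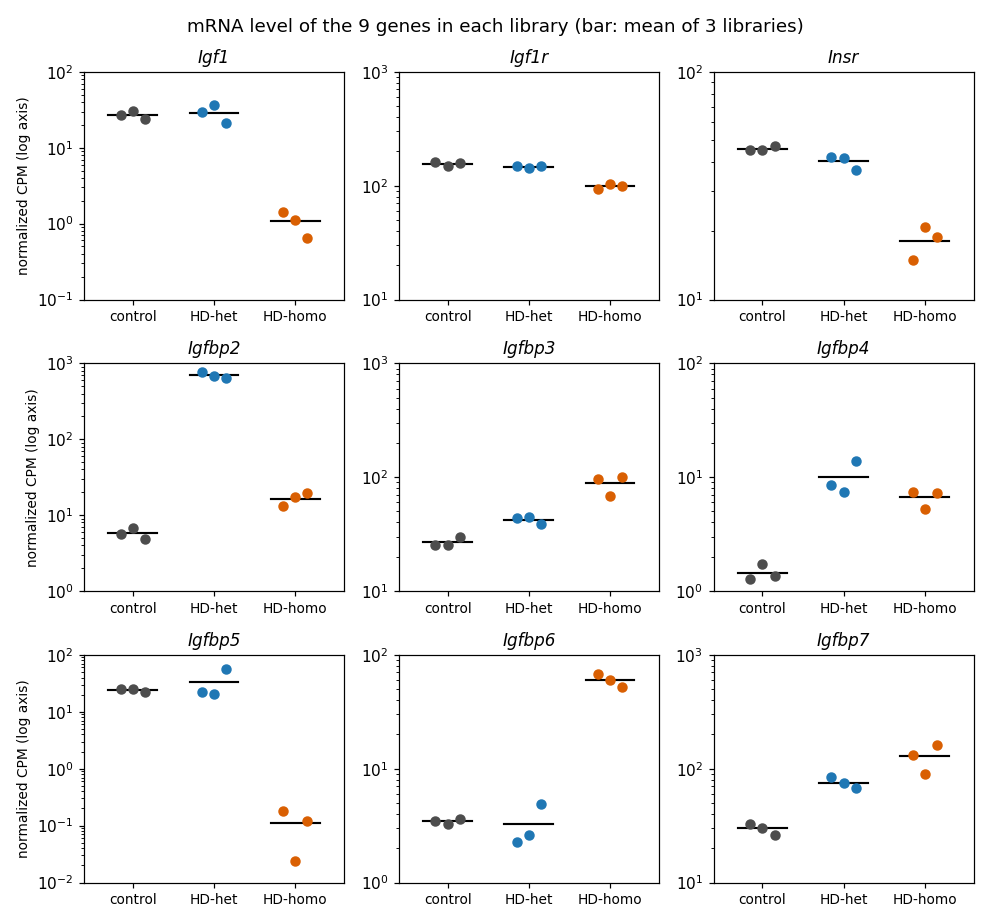
Normalized CPM (log axis, vertical) of each of the 9 genes in every library of the control, HD-het and HD-homo lines, with 1 point per library and the line mean. Igfbp2 reaches 647 to 779 CPM in HD-het libraries and 4.87 to 6.87 in control libraries, while Igf1 and Igfbp5 are lowest in HD-homo libraries.

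Levels of the 9 genes were compared with each other as CPM per kb of exon, as mean ± SD (n = 3). In control cells the highest mean was that of Igfbp7 at 24.7 ± 2.66 CPM per kb. Igf1r (9.29 ± 0.368) and Igfbp3 (8.56 ± 0.820) followed and did not differ beyond their spread. Igfbp5 (4.04 ± 0.336) came next, then Insr (3.35 ± 0.0684), Igfbp2 (3.14 ± 0.545), Igfbp6 (3.09 ± 0.141) and Igf1 (2.76 ± 0.350) CPM per kb, and none of these last 4 differed from the next in order beyond the spread. Igfbp4 was lowest at 0.329 ± 0.0544 CPM per kb. In HD-het cells Igfbp2 led at 380 ± 37.3 CPM per kb, followed by Igfbp7 (62.4 ± 6.69), Igfbp3 (13.5 ± 0.893) and Igf1r (8.77 ± 0.234). Below these, Igfbp5 (5.56 ± 3.45), Insr (2.94 ± 0.210), Igfbp6 (2.92 ± 1.25), Igf1 (2.92 ± 0.754) and Igfbp4 (2.26 ± 0.780) CPM per kb did not differ from their neighbours beyond the spread. In HD-homo cells Igfbp7 led at 106 ± 29.5 CPM per kb, then Igfbp6 (54.2 ± 7.04), Igfbp3 (28.3 ± 5.73), Igfbp2 (8.96 ± 1.75) and Igf1r (5.89 ± 0.295). Igfbp4 (1.5 ± 0.281) and Insr (1.32 ± 0.219) CPM per kb did not differ beyond their spread, and Igf1 (0.108 ± 0.0398) and Igfbp5 (0.0181 ± 0.0134) were lowest. With the length of the longest transcript in place of all exons, part of the order changed. In control cells Insr (4.92 ± 0.101) stood above Igfbp5, Igfbp2 (4.44 ± 0.771) and Igf1 (3.87 ± 0.492) were within the spread of Igfbp5, and Igf1 was above Igfbp6 beyond their spread, as was Igf1r (13.7 ± 0.542) above Igfbp3 (11.1 ± 1.06). In HD-het cells Igf1 (4.10 ± 1.06) moved above Igfbp6 within their spread, and Igf1r (12.9 ± 0.345) differed from Igfbp5 beyond it. In HD-homo cells Insr (1.94 ± 0.322) moved above Igfbp4 (1.73 ± 0.323) within their spread.

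The binding protein mRNAs, summed over Igfbp2 to Igfbp7, came to 45.8, 44.5 and 41.1 CPM per kb in control, 513, 450 and 436 in HD-het and 211, 161 and 225 in HD-homo libraries. The 3 lines did not overlap, with HD-het cells highest and control cells lowest. The mean sum was 10.6-fold higher in HD-het and 4.54-fold higher in HD-homo than in the control line. The HD-het fold depends on the length used. Mean sums were 43.8 in control and 466 in HD-het cells with all exons, and 47.9 and 628 with the longest transcript. Igfbp7 made up 56.2% of the sum in the control line, 13.4% in the HD-het line and 52.6% in the HD-homo line. Igfbp2 made up 7.15%, 81.4% and 4.60% of it in the same order. Igfbp6 made up 7.07%, 0.642% and 27.9%. For Igfbp3 the share was 19.6%, 2.91% and 14.2%, and for Igfbp5 it was 9.20%, 1.22% and 0.0086%. By library, the Igfbp5 share was 0.723%, 0.762% and 2.19% in HD-het replicates 1 to 3. In HD-homo replicates it was 0.0145%, 0.00245% and 0.00883%.

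**Figure D3:**
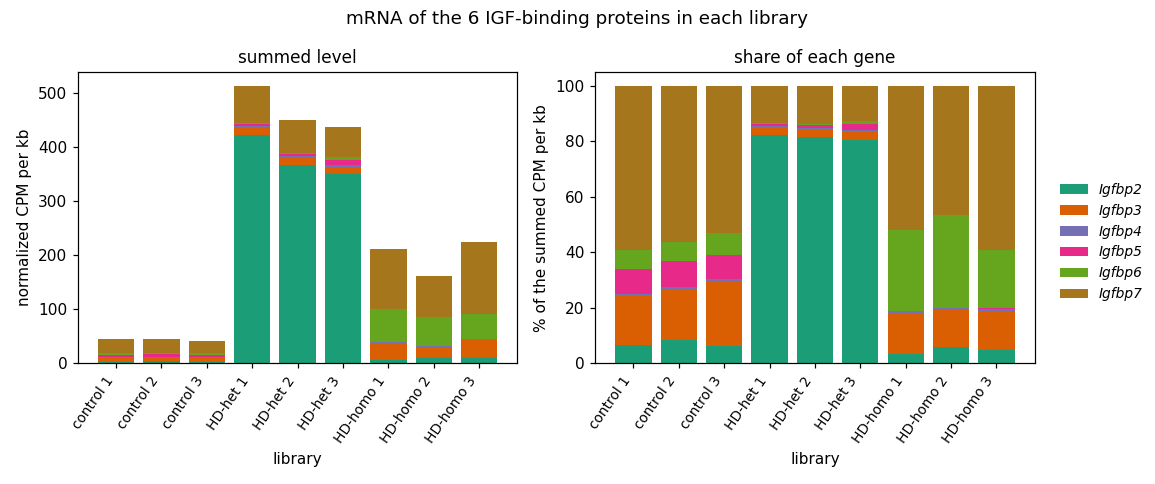
Summed level of Igfbp2 to Igfbp7 mRNA (vertical axis, CPM per kb of exon) in each of the 9 libraries, with each bar divided by gene (left), and the share of each gene in percent (right). The bars of HD-het libraries reach 436 to 513 and are mostly Igfbp2, and those of HD-homo libraries reach 161 to 225 and are mostly Igfbp7 and Igfbp6.

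For each of the 9 genes, the 3 genes most alike in pattern were found among 12015 genes by the root mean square difference of centred log2 CPM over the 9 libraries, and most of them are given here. For Igf1 they were Pde3b (0.264), Nr2f1 (0.281) and Mcam (0.313), in log2 units. Pde3b averaged 48.2, 60.8 and 2.29 CPM across the control, HD-het and HD-homo lines. For Igf1r they were Rtn3 (0.0351), Gm35315 (0.0482) and Zfp949 (0.0545), and for Insr they were Fam110c (0.0926), Perp (0.0973) and Dennd5b (0.124). Those of Igfbp2 included Adamts16 (0.471) and Nkain4 (0.541), with Adamts16 at 0.0415, 20.4 and 0.160 CPM in the 3 lines. Those of Igfbp3 included Parp12 (0.131) and Nectin1 (0.143), and those of Igfbp4 were Cd248 (0.254), Sardh (0.294) and Ramp3 (0.309). Sall3 (0.450), Pax6 (0.465) and Khdrbs3 (0.494) were nearest to Igfbp5, with Sall3 at 22.5, 34.6 and 0.0684 CPM. S100a16 (0.238), 2210016F16Rik (0.311) and Svep1 (0.333) were nearest to Igfbp6. Loxl1 (0.164), Ifi35 (0.196) and LOC108168923 (0.204) were nearest to Igfbp7.

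The other ligands, receptors and carriers of the pathway are a list of 8 genes, of which 3 were tested. Ins1, Ins2, Insrr, Igfals and Igfbp1 had 3 counts or fewer in every library. Against control cells, 1 of the 3 was higher and 2 were lower in each HD line. Of all tested genes, 29.6% were higher and 28.9% lower in HD-homo cells, and 33.8% and 31.4% in HD-het cells. The median log2 fold change of the list was -1.31 in HD-homo and -2.12 in HD-het cells. The medians of all tested genes were 0.0077 and 0.025. Igf2, the second IGF ligand, averaged 1.68, 0.386 and 0.680 CPM across the control, HD-het and HD-homo lines. It was 2.47-fold lower in HD-homo cells (log2 fold change -1.31, edgeR adjusted p 0.00406) and 4.36-fold lower in HD-het cells (-2.12, edgeR adjusted p 0.000251) than in the control line. Igf2r, which takes up IGF2 for degradation, averaged 110, 125 and 143 CPM. Against control it had a log2 fold change of 0.37 in the HD-homo line (edgeR adjusted p 0.000222) and 0.18 in HD-het cells (edgeR adjusted p 0.0203). The HD-het call was lost without control replicate 1 (edgeR adjusted p 0.0662), control replicate 2 (0.0983) or HD-het replicate 1 (0.0738). Igfbpl1, which encodes an IGFBP-like protein, had 0 counts in all 3 HD-homo libraries and was at least 10.8-fold lower there than in the control line at 0.909 CPM, with the floor of 3 counts taken per library. In the HD-het line it was 8.37-fold lower than in control (log2 fold change -3.03, edgeR adjusted p 2.86e-05). With Igfbpl1 at that bound the list median stayed at -1.31.

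Proteases that cut binding proteins, with their inhibitors, are a list of 10 genes, of which 9 were tested and Klk1 was at the floor. Of the 9, HD-homo cells had 3 higher (29.6% of all tested genes) and 3 lower (28.9%) than control, with a median log2 fold change of -0.0063. HD-het cells had 7 higher (33.8%) and 1 lower (31.4%), with a median of 0.97. Pappa encodes the protease of IGFBP4 named above. It averaged 6.12, 127 and 48.8 CPM across the control, HD-het and HD-homo lines, without overlap of the lines. Against control cells it was 20.7-fold higher in HD-het cells (log2 fold change 4.36, edgeR adjusted p 5.34e-09) and 7.98-fold higher in HD-homo cells (2.99, edgeR adjusted p 3.75e-08). Adam12 encodes a metalloprotease that cuts IGFBP3 and IGFBP5. It was 5.76-fold lower in HD-homo cells (log2 fold change -2.53, edgeR adjusted p 1.87e-05) and had a log2 fold change of 0.94 in HD-het cells (edgeR adjusted p 0.00866). Adamts1, a secreted metalloprotease, averaged 42.1, 8.16 and 85.8 CPM. It was 5.15-fold lower in HD-het cells (-2.36, edgeR adjusted p 1.87e-06) and 2.04-fold higher in HD-homo cells (1.03, edgeR adjusted p 0.000512) than in control.

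Proteins that carry an IGFBP domain outside the family are a list of 10 genes, of which 8 were tested and Wisp3 and Esm1 were at the floor. HD-homo cells had 4 higher (29.6% of all tested genes) and 2 lower (28.9%) than control, with a median log2 fold change of 0.66. HD-het cells had 5 higher (33.8%) and 3 not called, with a median of 0.69. Htra1 is in both this list and the protease list. Wisp2, a CCN family member, averaged 1.63, 22 and 20.1 CPM across the control, HD-het and HD-homo lines. It was 12.3-fold higher in HD-homo cells (log2 fold change 3.60, edgeR adjusted p 1.95e-06) and 13.5-fold higher in HD-het cells (3.74, edgeR adjusted p 1.58e-06) than in the control line. Crim1, a membrane protein, had a log2 fold change of -0.99 in the HD-homo line (edgeR adjusted p 9.14e-06).

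Receptor substrates and adaptors are a list of 17 genes, of which 14 were tested. Compared with control, 4 were higher (29.6% of all tested genes) and 8 lower (28.9%) in the HD-homo line (median log2 fold change -0.29). In the HD-het line 2 were higher (33.8%) and 7 lower (31.4%), with a median of -0.20. Called in either direction were 58.6% of all tested genes in HD-homo and 65.1% in HD-het cells. Shc2, an adaptor, was 4.01-fold higher in HD-homo cells (log2 fold change 1.98, edgeR adjusted p 2.27e-05). Grb14, which blocks the kinase of the insulin receptor, was 3.41-fold lower in HD-homo cells (-1.77, edgeR adjusted p 1.18e-05) and lower in HD-het cells (-0.93, edgeR adjusted p 0.000923). Shc4 averaged 6.37, 22.9 and 2.05 CPM across the control, HD-het and HD-homo lines, and against control it was called higher in the HD-het line (log2 fold change 1.84, edgeR adjusted p 1.94e-06) and lower in the HD-homo line (-1.65, edgeR adjusted p 1.70e-05). Chosen after their values were seen, Irs1 and Irs2, the main docking proteins of both receptors, had log2 fold changes of -0.74 (edgeR adjusted p 0.00163) and -1.05 (edgeR adjusted p 0.000644) in HD-homo against control cells. In the HD-het line Irs1 was also called lower (-0.63, edgeR adjusted p 0.00343) and Irs2 was not called (-0.14, edgeR adjusted p 0.528). Grb10, an inhibitory adaptor also chosen after its values were seen, averaged 329, 231 and 900 CPM across the control, HD-het and HD-homo lines.

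The PI3K, PDK1 and AKT list has 10 genes, all tested. Of these, 2 were higher (29.6% of all tested genes) and 4 lower (28.9%) in the HD-homo line than in control (median log2 fold change -0.061). In the HD-het line 3 were higher (33.8%) and 2 lower (31.4%), with a median of -0.038. Pik3cd, a catalytic subunit of PI3K, had a log2 fold change of 0.86 in the HD-homo line (edgeR adjusted p 0.000238). Pik3r1, a regulatory subunit, had -0.54 in HD-het cells (edgeR adjusted p 0.0074) and -0.53 in HD-homo cells (edgeR adjusted p 0.00975). The list of brakes on receptor signalling has 12 genes, of which 11 were tested. Relative to control, 6 were higher (29.6% of all tested genes) and 4 lower (28.9%) in the HD-homo line (median log2 fold change 0.29). In the HD-het line 3 were higher (33.8%) and 6 lower (31.4%), with a median of -0.21. Socs2, a suppressor of cytokine and growth hormone signalling, was 2.39-fold higher in HD-homo cells (log2 fold change 1.25, edgeR adjusted p 5.61e-05). Trib3, which binds AKT, averaged 8.32, 58.1 and 17.4 CPM and was 6.98-fold higher in HD-het than in the control line (log2 fold change 2.80, edgeR adjusted p 4.77e-06), with 1.06 in the HD-homo line (edgeR adjusted p 0.00597). Phlpp1, a phosphatase of AKT, averaged 95.6, 41.8 and 58.3 CPM, with log2 fold changes of -0.71 in the HD-homo line (edgeR adjusted p 0.000223) and -1.19 in the HD-het line (edgeR adjusted p 4.22e-06). Socs1, a suppressor of cytokine signalling, was 2.38-fold lower in the HD-het line than in control (-1.25, edgeR adjusted p 1.75e-05) and was not called in the HD-homo line (0.19, edgeR adjusted p 0.255).

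The 4 FoxO factors, transcription factors that AKT phosphorylates, gave 1 higher and 1 lower gene in each HD line against control cells. The median was 0.04 in both. Of all tested genes, 29.6% were higher and 28.9% lower in HD-homo cells, and 33.8% and 31.4% in HD-het cells. Foxo1 (95.1, 86.6 and 109 CPM across the control, HD-het and HD-homo lines) and Foxo4 (12.1, 14.1 and 11.1 CPM) were not called. Foxo6 averaged 1.27, 5.01 and 0.557 CPM, with log2 fold changes of -1.18 in HD-homo cells (edgeR adjusted p 0.000346) and 1.97 in HD-het cells (edgeR adjusted p 1.11e-06). Foxo3 averaged 24.8, 18.7 and 29.8 CPM and was called lower in the HD-het line than in control (-0.41, edgeR adjusted p 0.00235). It had 0.27 in HD-homo cells (edgeR adjusted p 0.0262), a call lost without control replicate 1 (0.117), control replicate 2 (0.0945), HD-homo replicate 2 (0.0543) or HD-homo replicate 3 (0.0564). Of the 3 IGF2 mRNA-binding proteins, Igf2bp1 (log2 fold change 0.65, edgeR adjusted p 2.64e-05) and Igf2bp2 (0.63, edgeR adjusted p 4.19e-06) were higher and Igf2bp3 (-0.31, edgeR adjusted p 0.00616) was lower in HD-homo than in the control line. Their median was 0.63 there and -0.064 in HD-het cells, where 1 was lower and 2 were not called. The growth hormone axis, which drives Igf1 in liver, is a list of 6 genes, of which 4 were tested and Gh and Ghrhr were at the floor. The HD-homo line had 2 higher than control and 2 not called (median 0.47), and the HD-het line had 1 higher and 2 lower (median -0.022). The receptor gene Ghr averaged 16.5, 25.7 and 29.7 CPM across the control, HD-het and HD-homo lines, and the kinase gene Jak2 (37.5, 43.3 and 38.1 CPM) was not called against control. Stat5a, a transcription factor downstream of the receptor, averaged 11.3, 6.78 and 32.9 CPM, with log2 fold changes of 1.54 in the HD-homo line (edgeR adjusted p 6.03e-09) and -0.73 in the HD-het line (edgeR adjusted p 5.00e-06). Its relative Stat5b averaged 52.1, 43.8 and 55.5 CPM and was called lower in the HD-het line only (-0.25, edgeR adjusted p 0.00993).

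**Figure D4:**
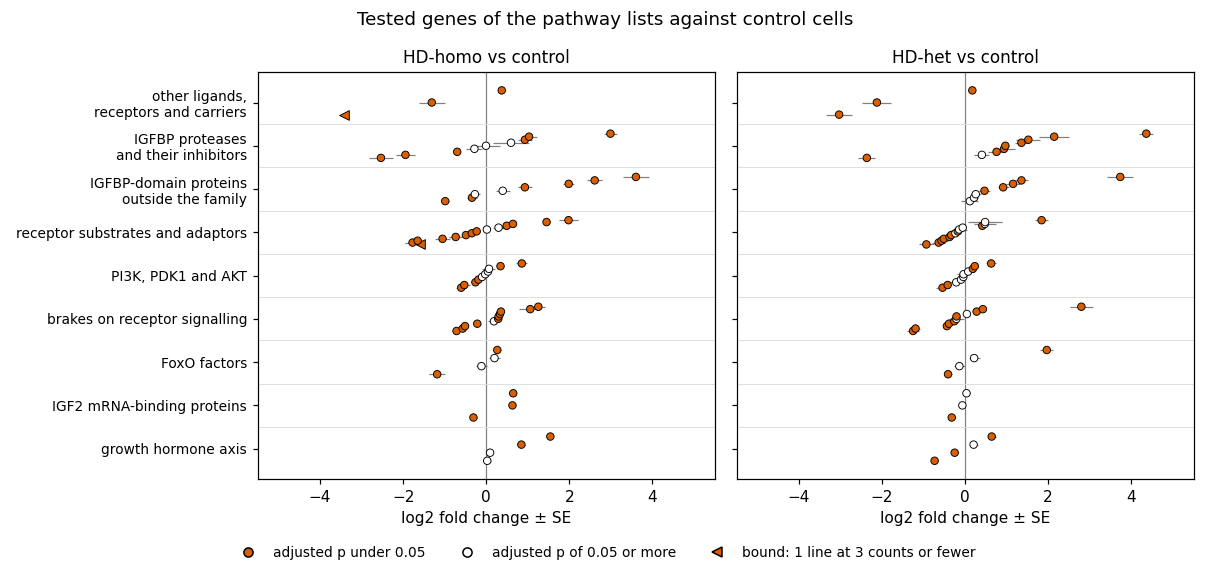
Log2 fold change with SE (horizontal axis) of every tested gene of the 9 pathway lists in HD-homo and HD-het cells against control cells, with filled points for an adjusted p under 0.05 and triangles for genes shown at their bound because 1 line had 3 counts or fewer in each library. Pappa is the rightmost point of the HD-het panel at 4.36, and Wisp2 is the rightmost of the HD-homo panel at 3.60.

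Htt itself averaged 100, 62.3 and 20.2 CPM across the control, HD-het and HD-homo lines, and was 4.95-fold lower in HD-homo than in the control line (log2 fold change -2.31, SE 0.069, edgeR adjusted p 3.42e-10). In the HD-het line it was also lower (-0.68, edgeR adjusted p 4.39e-06). Some markers of cell types also differed between the lines, and their part in the differences of the 9 genes was not tested. The marker counts stand beside shares of all tested genes of 29.6% higher and 28.9% lower in HD-homo cells. In HD-het cells these shares were 33.8% and 31.4%. Of 13 striatal neuron markers 5 were tested, and Drd1, Drd2, Gad1, Rbfox3 and Dcx were at the floor. The level summed over all genes of the list, as for each marker list, was 112, 116 and 94.8 CPM in control, 115, 115 and 109 in HD-het and 91.6, 93.0 and 117 in HD-homo libraries, most of it Map2 except in HD-het replicate 3, where Tubb3 led. Of the 5, the HD-homo line had 1 higher than control and 4 not called, and the HD-het line had 2 higher and 1 lower. Of 9 neural progenitor markers 7 were tested, with Gsx2 among those at the floor, and 2 were higher and 5 lower in HD-homo cells against 3 and 3 in HD-het cells. Their sum, mostly Vim, was 6104, 6036 and 6476 CPM in control, 5640, 5468 and 5957 in HD-het and 4262, 4278 and 4683 in HD-homo libraries. Nes averaged 526, 840 and 28.4 CPM and Sox2 averaged 128, 82.9 and 5.48 CPM across the control, HD-het and HD-homo lines. In the same list Dlx1 averaged 10.4, 9.51 and 16.1 CPM and Dlx2 averaged 16.2, 4.66 and 31.8 CPM, both highest in HD-homo cells. Pax6, also near to Igfbp5 in pattern, averaged 32.1, 48.2 and 0.132 CPM.

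For the marker counts that follow, the shares of all tested genes are again 29.6% higher and 28.9% lower in HD-homo cells. They are 33.8% and 31.4% in HD-het cells. Of 11 pericyte and fibroblast markers 9 were tested, with Rgs5 at the floor, and 6 were higher and 2 lower in each HD line against control cells. Their sum was 6234, 6100 and 4919 CPM in control, 16749, 15598 and 14835 in HD-het and 7040, 6710 and 7328 in HD-homo libraries, led by Col1a1 except in control replicate 3, where Acta2 led. Pdgfra averaged 5.21, 4.38 and 307 CPM and Pdgfrb averaged 92.7, 362 and 146 CPM across the control, HD-het and HD-homo lines. Acta2 averaged 2271, 5290 and 91.8 CPM and Tagln averaged 272, 1790 and 21.6 CPM, both lowest in HD-homo cells. Col1a2 averaged 73.4, 3.15 and 1494 CPM. Of 7 astrocyte markers 3 were tested, with Aqp4 and S100b at the floor. All 3 were higher in the HD-homo line and 2 were lower in the HD-het line. One of the 3, Slc1a2, averaged 0.265, 0.473 and 0.685 CPM across the control, HD-het and HD-homo lines, and its HD-homo and control libraries overlapped. Gfap (0.169, 0.148 and 0.038 CPM) and Aldh1l1 (0.160, 0.0691 and 0.0278 CPM) were too low to be tested and were lowest in HD-homo cells. The sum of the astrocyte list, led by Gja1, was 375, 373 and 327 CPM in control, 216, 213 and 232 in HD-het and 401, 461 and 430 in HD-homo libraries. Of 7 oligodendrocyte markers 3 were tested, with Mog, Olig1 and Olig2 at the floor, and 2 were higher in HD-homo and 1 in HD-het cells. Their sum was 1.09, 0.862 and 0.642 CPM in control, 1.49, 1.83 and 1.38 in HD-het and 1.93, 2.70 and 2.89 in HD-homo libraries, where in HD-homo libraries Mbp led. Of 7 microglia markers 3 were tested, with Aif1, Itgam and Trem2 at the floor, and 1 was higher and 1 lower in each HD line. Their sum, led by Tmem119, was 16.0, 14.5 and 12.2 CPM in control, 45.6, 42.7 and 52.5 in HD-het and 14.6, 13.4 and 13.2 in HD-homo libraries. Of 7 endothelial markers 2 were tested, with Cldn5, Tie1 and Emcn at 0 in all 9 libraries. Their sum was 0.809, 0.773 and 1.08 CPM in control, 1.55, 1.34 and 0.839 in HD-het and 1.01, 1.54 and 1.4 in HD-homo libraries, led by Kdr except in HD-homo replicate 1, where Cdh5 led. In HD-het cells 1 was higher and 1 lower, and neither was called in HD-homo cells. The median log2 fold changes of the tested markers in the HD-homo and HD-het lines against control were -0.17 and -0.061 for striatal neuron markers and -0.82 and -0.13 for neural progenitor markers. For pericyte and fibroblast markers they were 0.78 and 1.22, and for astrocyte markers 1.39 (the value of Slc1a2) and -0.70. For oligodendrocyte markers they were 2.32 and 0.42, for microglia markers -0.19 and 0.29, and for endothelial markers 0.056 and -0.23.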

How the data were processed

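The authors deposited counts per gene for the 9 libraries, which are whole numbers that were used as given. The submitters' notes name cutadapt, Bowtie 1.1.2, RSEM 1.3.0 and DESeq2 and the builds GRCm38.p5 and mm10 with no role for any, and the paper names no test for these counts. In R 4.3.3, edgeR 4.0.16 was run with filterByExpr (minimum count 10), TMM and a quasi-likelihood fit with 1 mean per line, giving two-sided tests with Benjamini-Hochberg adjustment over all tested genes. The SE is the size of the log2 fold change divided by the square root of F. Each line has 3 libraries, and 0 sample columns were left out. The table holds 26 symbols turned into dates and 2 symbols listed a second time. Exon lengths came from the union of exons on GRCm38. Alikeness used log2 of CPM plus 0.1 and genes with a mean of at least 1 CPM. Alternatives were DESeq2 1.42.0 with its Wald test, DESeq2 size factors, library totals, other filters on low counts, a prior count of 2, only the compared lines, the replicate number as a block, longest-transcript lengths, a 2-fold minimum, and each library left out in turn. Members and lists were chosen with earlier results of these data known. From lists of at most 4 tested genes all were eligible to be named. From longer lists the called genes with the largest increase and decrease in each HD line against control cells were eligible, at 1 CPM or more in the higher line. Irs1, Irs2, Grb10, Polr2b, Htt, Igf1os and the marker genes named with levels fall outside that rule and were chosen after their values were seen. The pathway lists were other ligands, receptors and carriers, proteases and inhibitors, IGFBP-domain proteins, receptor adaptors, PI3K to AKT, brakes, FoxO factors, IGF2 mRNA-binding proteins and the growth hormone axis, beside 7 marker lists.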

Additional observations from a re-analysis of the deposited data

How the results depend on the processing

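Of 456 values of the 9 genes under the alternatives, 445 kept their direction and their side of the threshold, 3 lost a call, 3 gained one and 5 changed sign. In HD-het against control cells the log2 fold change of Igf1 ranged from -0.11 to 0.26 when a library was left out, that of Insr from -0.22 to -0.13, that of Igfbp5 from -0.18 to 0.71 and that of Igfbp6 from -0.49 to 0.12. Sign changes were those of Igf1 (-0.0066 and -0.11), Igfbp5 (-0.18) and Igfbp6 (0.12 and 0.05), none of them a called value. With only the compared lines in the fit, Insr passed the threshold there (-0.19), and Igfbp4 in HD-homo against HD-het cells lost its call (-0.60). Igfbp4 in that comparison ranged from -0.77 to -0.28 when a library was left out. The cause was not tested. Requiring 10 counts in every library removed Igfbp5 by construction and left 8 of the 9 genes. Requiring at least a 2-fold change left 2574, 2490 and 3285 genes called in HD-homo against control, HD-het against control and HD-homo against HD-het cells, fewer by construction. With the longest transcript as length, the CPM per kb across the control, HD-het and HD-homo lines became 3.87, 4.10 and 0.152 for Igf1, 13.7, 12.9 and 8.66 for Igf1r, 4.92, 4.33 and 1.94 for Insr, 4.44, 536 and 12.7 for Igfbp2, and 11.1, 17.5 and 36.6 for Igfbp3. The binding protein sum became 47.9 in control and 628 in HD-het cells, so its fold between these lines also changed. These shifts follow from shorter lengths. Libraries with the same replicate number share only that number. Their deviations from the line mean correlated across genes at 0.023 to 0.040 in HD-homo against control, 0.068 to 0.245 in HD-het against control and 0.032 to 0.202 in HD-homo against HD-het cells, and every library correlated best with its own number in the first of these comparisons only. Genes are not independent replicates. With the number as a block 8372, 9160 and 9938 genes were called in place of 7910, 8797 and 9666, and of the 9 genes 9, 4 and 9 were. Depth limits Igfbp5 in HD-homo cells, where 1 to 6 counts per library leave a wide counting interval. Whether replicates are separate cultures is not stated.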
